A study of Mus musculus with 4 samples.

Results

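The genes described here are 8 genes of proteolysis at the macrophage surface and in the surrounding matrix: the metalloproteases Mmp8, Mmp9, Mmp12, Mmp13 and Mmp14, the inhibitor Timp2, and the transmembrane proteases Adam8 and Adam17. They were chosen by symbol, and all 8 were found among the 14432 genes of the count table. The data were single-cell transcriptomes of bone marrow-derived macrophages (BMDMs), primary cells grown out of mouse bone marrow in M-CSF (50 ng/mL), from mice aged 8 to 12 weeks. The 4 libraries came from cells labelled Trpv4-null given bacterial lipopolysaccharide (LPS, 100 ng/mL for 24 h), wild-type cells (titled C57BL/6J, though the growth protocol has C57BL/6) given the same LPS, untreated cells labelled Trpv4-null and untreated wild-type cells. TRPV4 is a mechanosensitive calcium-permeable channel, and the series title sets it beside NF-kB signalling in lung inflammation. Each group was 1 library. The design text of the series speaks of several mice per genotype, but the cell annotation names no mouse, so no difference below has a replicate check, no test was run, and every interval covers counting error only.

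Matrix metalloproteases (MMPs) are zinc proteases that are made as inactive proforms and cut collagens, elastin, other matrix proteins and many secreted signals. Macrophages use them in tissue entry, matrix turnover and inflammation of the lung. TIMPs block active MMPs by binding their catalytic site. ADAM proteases sit in the plasma membrane and release the outer part of other membrane proteins, a step called shedding, by which membrane TNF becomes a soluble cytokine.

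On GRCm38, the assembly that the mm10 build of the submitters' processing notes names, the GENCODE M21 annotation places Mmp13 at chr9:7272514-7283331, Mmp12 at chr9:7344381-7369499 and Mmp8 at chr9:7558456-7568485, all on the plus strand of 1 run of MMP genes. Mmp9 lies at chr2:164940780-164955850 and Mmp14 at chr14:54431612-54445364, both on the plus strand. Timp2 lies at chr11:118301069-118355740, Adam8 at chr7:139978932-139992562 and Adam17 at chr12:21323509-21373632, all on the minus strand. Strand use in the authors' counting is not given in the sources used here. Timp2 overlaps Cep295nl on its own strand and Adam17 overlaps Iah1 on the opposite strand, and both of these genes are in the table, so reads of these pairs may have been split.

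The promoters of the chromosome 9 members are shown because these 3 genes had the highest ratios of the 8 between the libraries labelled Trpv4-null and wild type. The Mmp14 promoter is shown because Mmp14 had the highest ratio of the 8 between LPS and untreated libraries. The sequences are RefSeq windows on GRCm38.p6, 5′ to 3′ on the gene's strand (plus in each case), from 250 bases before the annotated start to 50 bases after it. They lie at chr9:7272264-7272563 (Mmp13), chr9:7347124-7347423 and chr9:7344147-7344446 (the downstream and upstream starts of Mmp12), chr9:7558179-7558478 (Mmp8) and chr14:54431348-54431647 (Mmp14). Capitals mark matches, on either strand, to the AP-1 site TGANTCA, to TATAAA or to an NF-kB site (GGGA and TTCC with 2 bases between them).
Mmp13: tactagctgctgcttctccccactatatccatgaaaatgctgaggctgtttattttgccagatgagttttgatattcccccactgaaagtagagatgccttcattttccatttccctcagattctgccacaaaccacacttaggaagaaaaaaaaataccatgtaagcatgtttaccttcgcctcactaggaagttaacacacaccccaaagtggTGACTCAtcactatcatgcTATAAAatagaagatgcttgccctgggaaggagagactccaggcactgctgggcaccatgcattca
Mmp12, downstream start: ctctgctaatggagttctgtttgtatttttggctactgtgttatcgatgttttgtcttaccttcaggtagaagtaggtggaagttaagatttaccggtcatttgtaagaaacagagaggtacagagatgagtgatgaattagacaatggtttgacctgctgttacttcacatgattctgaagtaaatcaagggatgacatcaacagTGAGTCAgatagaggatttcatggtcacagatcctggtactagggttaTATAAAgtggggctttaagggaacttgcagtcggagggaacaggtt
Mmp12, upstream start: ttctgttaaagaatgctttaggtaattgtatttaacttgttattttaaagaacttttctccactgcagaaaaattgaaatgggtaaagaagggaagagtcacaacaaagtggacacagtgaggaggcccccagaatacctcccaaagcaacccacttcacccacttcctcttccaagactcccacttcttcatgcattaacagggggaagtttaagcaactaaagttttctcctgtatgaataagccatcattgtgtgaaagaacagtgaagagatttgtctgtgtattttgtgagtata
Mmp8: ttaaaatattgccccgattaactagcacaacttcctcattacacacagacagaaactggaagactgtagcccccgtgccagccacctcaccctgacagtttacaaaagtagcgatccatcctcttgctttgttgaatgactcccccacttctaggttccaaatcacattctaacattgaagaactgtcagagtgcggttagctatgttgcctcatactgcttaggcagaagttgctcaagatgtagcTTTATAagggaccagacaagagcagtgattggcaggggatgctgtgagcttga
Mmp14: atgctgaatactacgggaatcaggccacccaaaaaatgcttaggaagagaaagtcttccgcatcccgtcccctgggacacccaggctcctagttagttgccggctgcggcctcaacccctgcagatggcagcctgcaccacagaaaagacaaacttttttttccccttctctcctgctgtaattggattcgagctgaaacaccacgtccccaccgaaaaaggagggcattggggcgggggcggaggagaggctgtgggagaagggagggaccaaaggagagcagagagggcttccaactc

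The Mmp13 window held TGACTCA, beginning 35 bases before the start, and TATAAA, beginning 16 bases before it. The window at the downstream Mmp12 start held TGAGTCA 44 bases before the start and TATAAA 4 bases after it, whereas the upstream Mmp12 window held no match. The Mmp8 window held TTTATA, which is TATAAA on the opposite strand, 3 bases before the start. No match to any of the 3 motifs was found in the windows of Mmp14, Timp2, Adam8 and Adam17. Among 32851 RefSeq promoter windows of the same length, 7.81% held the AP-1 letters, 13.6% held TATAAA and 1.47% held the NF-kB letters. G and C made up 43.7% of the Mmp13 window, 40.7% and 38.7% of the downstream and upstream Mmp12 windows and 46% of the Mmp8 window. The same share was 56% for Mmp14, 68.7% for Timp2, 52.3% for Adam8 and 70% for Adam17, and the median over all windows was 52.7%. These matches are strings of letters and do not show binding.

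The library labelled Trpv4-null held 6565 cells after LPS and 5485 cells untreated, and the wild-type library held 8288 cells after LPS and 7028 cells untreated. Depth differed with LPS: the median cell had 16041 and 16673.5 UMIs (molecular barcodes that count each captured mRNA once) in the LPS libraries, labelled Trpv4-null and wild type, against 7893 and 5660.5 UMIs in the untreated libraries in the same order. Levels are therefore given as CPM (UMIs scaled to a library total of 1000000) and shares of cells also after thinning each cell to 3000 UMIs. All 14 macrophage markers reached 20 CPM in every compared cluster, while 0 of 3 stromal markers, of 10 listed, reached it in any library. Trpv4 itself had 9.62 and 2.07 CPM in the LPS libraries, labelled Trpv4-null and wild type, and 8.60 and 5.83 CPM in the untreated ones, so its UMIs were not lower under the null label. The sources used here do not give the deleted part of the gene, and UMIs from outside that part check nothing. Of all cell barcodes, 74 occurred in 2 libraries (148 cells).

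Mmp14, the membrane-anchored collagenase that also activates the proform of MMP2, had the highest LPS ratio of the 8 genes. It had 299 CPM in the LPS library labelled Trpv4-null and 287 CPM in the wild-type LPS library, against 2.60 and 2.81 CPM in the untreated libraries labelled Trpv4-null and wild type. LPS levels were thus 115 times the untreated level under the null label (95% interval 96.4 to 139) and 102 times in wild type (85.5 to 123). A UMI of Mmp14 was found in 88.4% and 85.6% of cells of the LPS libraries, labelled Trpv4-null and wild type, and in 1.71% and 1.39% of untreated cells. At 3000 UMIs per cell these shares were 55.1% and 51.5% after LPS against 0.607% and 0.676% untreated. Both LPS libraries lay far above both untreated libraries, in each of the 8 clusters with at least 100 cells in every library. Mmp2 itself had 0.917 and 0.951 CPM in the LPS libraries and 0.957 and 1.006 CPM in the untreated ones. Mmp14 UMIs after LPS were spread over the culture: the 1% of cells with the most held 3.88% of them under the null label and 4.12% in wild type.

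**Figure D1:**
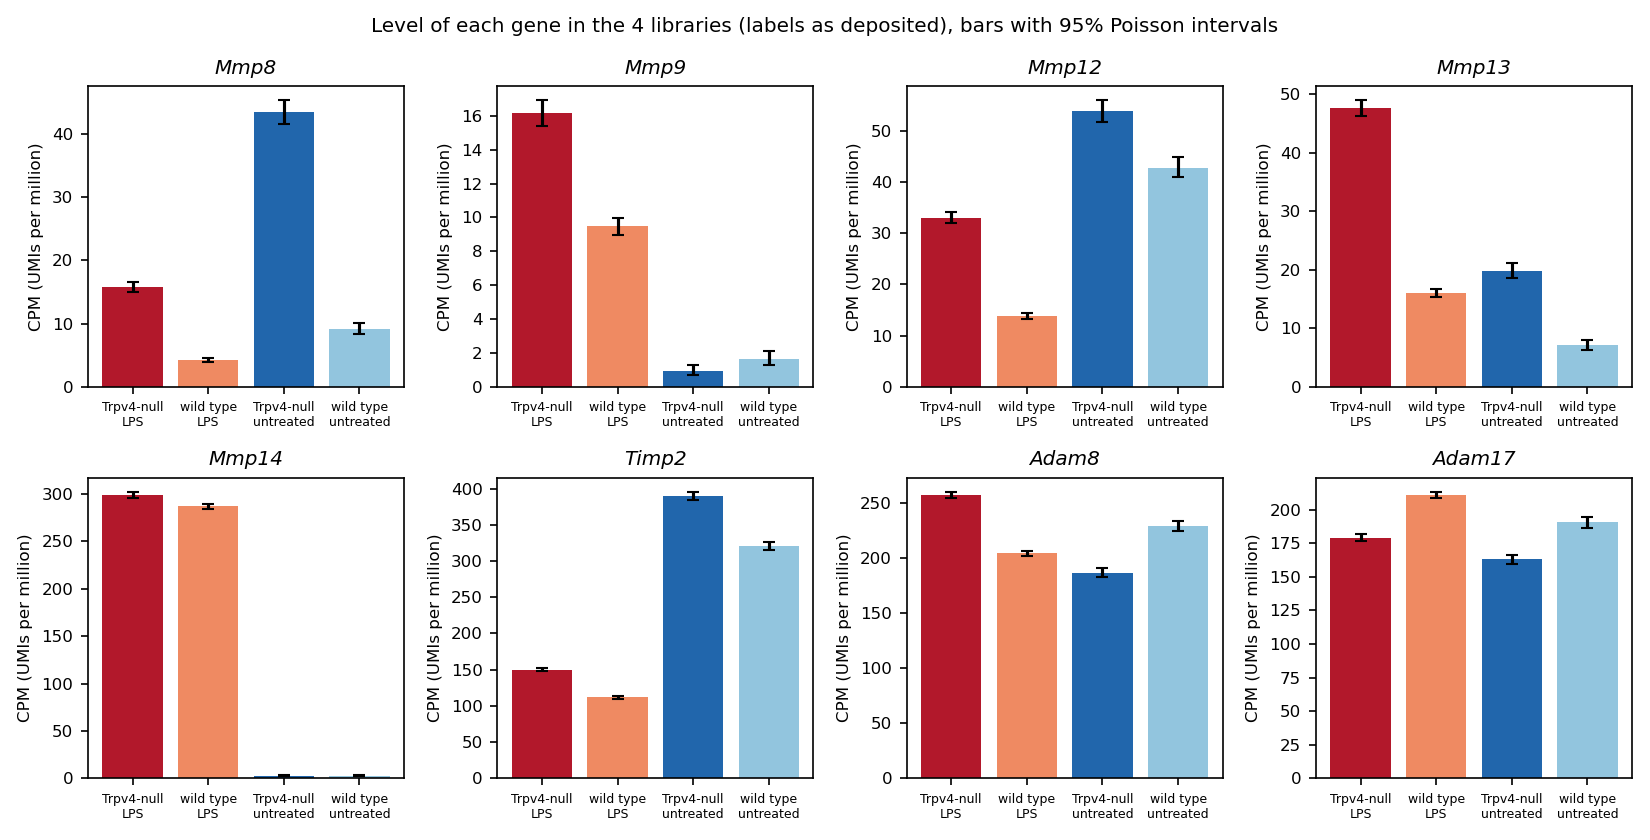
Level of each of the 8 genes, in CPM on a linear axis that starts at 0 and differs between panels, in the 4 libraries; bars are whole-library values and whiskers 95% Poisson intervals (counting error only, 1 library per group). Mmp14 reaches 299 and 287 CPM after LPS against 2.60 and 2.81 CPM untreated, and Timp2 shows the opposite order.

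Timp2, an inhibitor that with MMP14 also forms the surface complex that activates the proform of MMP2, was lower after LPS. It had 150 CPM in the LPS library labelled Trpv4-null and 112 CPM in the wild-type LPS library, against 390 and 320 CPM in the untreated libraries in the same order. The log2 ratio of LPS over untreated (log2 of CPM + 1, as for every log2 ratio below) was -1.37 under the null label and -1.51 in wild type, and it was below 0 in 8 of 8 clusters in both. At 3000 UMIs per cell, Timp2 was found in 34.1% and 26.6% of LPS cells, labelled Trpv4-null and wild type, against 63.9% and 58.5% of untreated cells. Both LPS libraries lay below both untreated libraries in level and in share. Timp1, an inhibitor of the same family, had 94.9 and 131 CPM after LPS, labelled Trpv4-null and wild type, against 0.957 and 0.869 CPM untreated, the opposite order to Timp2, and of 4 other inhibitors listed, 2 were in the table and Timp1 alone reached 20 CPM.

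Mmp9, the gelatinase that is stored in neutrophil granules and secreted by activated macrophages, was also higher after LPS, at a low level. It had 16.1 and 9.47 CPM in the LPS libraries, labelled Trpv4-null and wild type, against 0.957 and 1.67 CPM in the untreated ones. The ratio of LPS over untreated was 16.9 under the null label (12.5 to 23.2) and 5.67 in wild type (4.48 to 7.28). Since no library reached 20 CPM, Mmp9 was left out of the counts of genes past 2-fold, which took in genes with at least 20 CPM and 30 UMIs in the higher library. The untreated values rest on 45 UMIs in the library labelled Trpv4-null and 73 UMIs in wild type. Of these, 44.4% and 32.9% lay in the 17 and 7 cells of those libraries with at least 2 UMIs of the neutrophil genes S100a8 and S100a9 together. Without such cells in all 4 libraries the log2 ratio of LPS over untreated was 3.45 under the null label and 2.26 in wild type, against 3.13 and 1.97 with them.

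Mmp13, a collagenase that cleaves fibrillar collagen, was higher after LPS in both pairs of libraries. It had 47.6 and 16.0 CPM after LPS, labelled Trpv4-null and wild type, against 19.8 and 7.09 CPM untreated. The ratio of LPS over untreated was 2.41 under the null label (2.25 to 2.59) and 2.26 in wild type (2.003 to 2.55), and in wild type Mmp13 lay under the 20 CPM minimum in both libraries. Within clusters the order was less uniform, with log2 ratios above 0 in 7 of 8 clusters under the null label and in 6 of 8 in wild type. The highest was in the cluster the authors named Cd74+, with 2.82 under the null label and 1.43 in wild type. With the clusters weighted equally the whole-library log2 ratios were 0.83 and 0.82.

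Mmp8, the collagenase best known from neutrophil granules, was lower after LPS in both pairs. It had 15.8 and 4.19 CPM in the LPS libraries, labelled Trpv4-null and wild type, against 43.4 and 9.19 CPM in the untreated ones. The log2 ratio was -1.41 under the null label and -0.97 in wild type, where neither library reached 20 CPM. Under the null label Mmp8 was lower in 7 of 8 clusters, with Cd74+ the other way, at 62.0 CPM after LPS against 42.8 CPM untreated. In wild type it was lower in 6 of 8 clusters, with counting intervals below an even ratio in 3, and it had 5.14 CPM after LPS against 4.22 CPM untreated in High_Lpl_Fabp4+ and 4.74 against 4.17 CPM in Il1b+_Cxcl2+.

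Mmp12, the macrophage elastase, had a lower whole-library level after LPS while most clusters under the null label had a higher one. It had 33.0 and 13.8 CPM after LPS, labelled Trpv4-null and wild type, against 53.8 and 42.8 CPM untreated, which gave log2 ratios of -0.69 and -1.56. Within clusters the LPS log2 ratio was above 0 in 6 of 8 clusters under the null label and in 3 of 8 in wild type. Counting intervals lay above an even ratio in 4 and 2 clusters, and below it in 2 and 2, in the same order. In the cluster named Ifit1bl1+_Cmpk2+, Mmp12 had 40.5 CPM after LPS against 4.70 CPM untreated under the null label, and 7.97 against 3.22 CPM in wild type. These untreated values rest on 8 and 4 UMIs, and the wild-type ratio there had an interval of 0.94 to 9.24. In High_Lpl_Fabp4+ it had 83.0 CPM after LPS against 239 CPM untreated under the null label, and 28.9 against 161 CPM in wild type. Cd74+ and High_Lpl_Fabp4+ together held 85.1% and 92.8% of all untreated Mmp12 UMIs, labelled Trpv4-null and wild type, in 17.9% and 19.0% of the cells. After LPS they held 59.5% and 61.7% of Mmp12 UMIs in 17.7% and 15.4% of the cells.

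By CPM of the library total, the sheddases were the members nearest to an even level between LPS and untreated libraries. Adam17, which releases TNF and the TNF receptors from the cell surface, had 179 and 211 CPM after LPS, labelled Trpv4-null and wild type, against 163 and 191 CPM untreated. Its log2 ratios were 0.14 and 0.15, and with median-of-ratios size factors they were 0.74 and 0.68. Adam8, a leukocyte protease of the same family, had 257 and 204 CPM after LPS against 187 and 229 CPM untreated. Its log2 ratio was 0.46 under the null label and -0.16 in wild type, and with median-of-ratios size factors in place of library totals these values were 1.07 and 0.37. Within clusters, by CPM, the Adam8 log2 ratio was above 0 in 8 of 8 under the null label and in 3 of 8 in wild type. It was highest in Ifit1bl1+_Cmpk2+ (1.18 and 0.94) and lowest in High_Lpl_Fabp4+ (0.05 and -0.54), labelled Trpv4-null and wild type. In the order of Adam8 levels the untreated wild-type library (224.8 to 233.8 CPM) lay between the LPS library labelled Trpv4-null (254.4 to 260.4 CPM) and the wild-type LPS library (202.1 to 206.8 CPM).

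**Figure D2:**
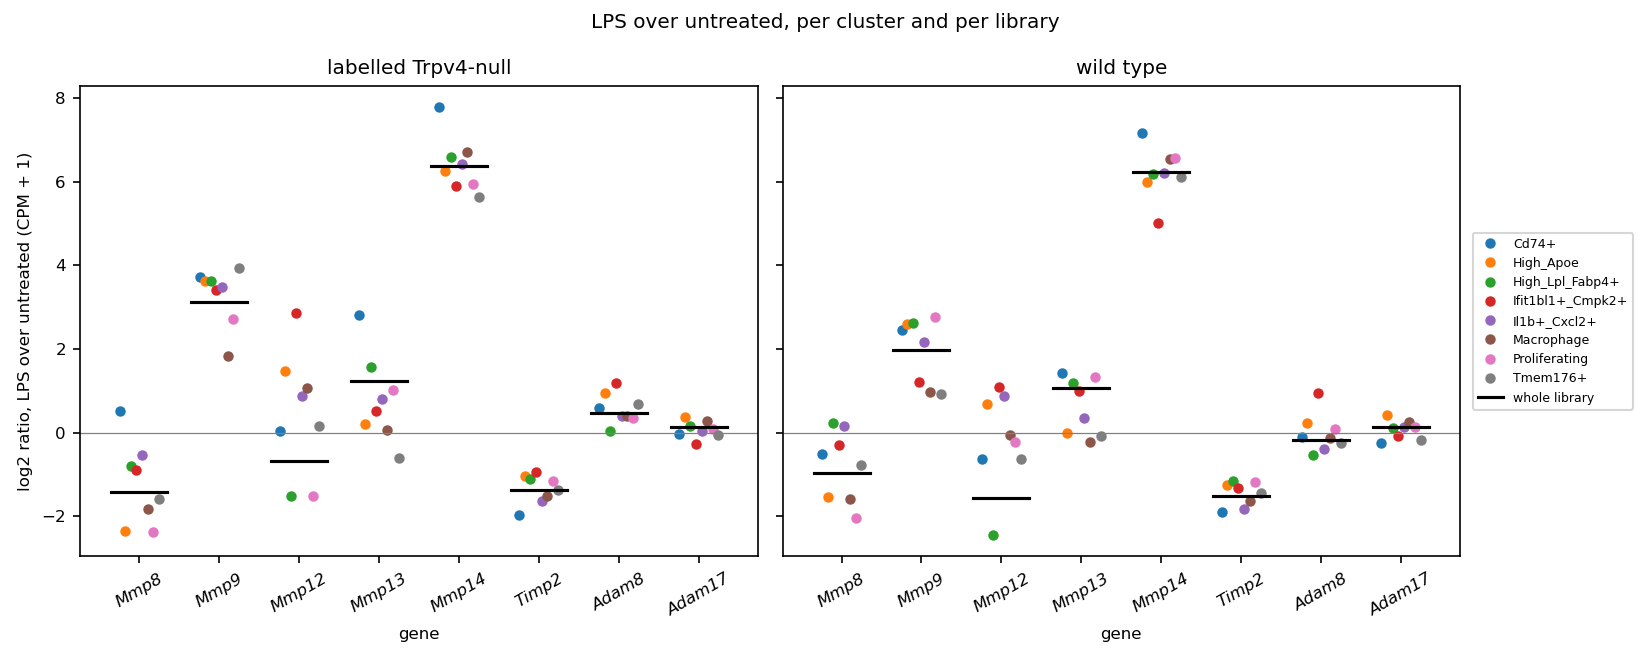
Log2 ratio of CPM + 1, LPS over untreated, for each gene; points are the 8 clusters named by the authors and black lines the whole libraries, labelled Trpv4-null on the left and wild type on the right. Mmp14 points lie between 5.002 and 7.77, every Timp2 point lies below 0, and Mmp12 points spread from -2.44 to 2.86.

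Under the null label 7 of the 8 genes were compared between LPS and untreated. Of these, 2 were at least 2-fold higher (Mmp13 and Mmp14), beside 7.3% of the 6340 genes compared, and 2 were at least 2-fold lower (Mmp8 and Timp2), beside 21.3%. In wild type 5 were compared: 1 was at least 2-fold higher (Mmp14), beside 6.9% of 6332 genes, and 2 were lower (Mmp12 and Timp2), beside 17.7%. Median log2 ratios of the compared members were 0.14 under the null label and -0.16 in wild type, against -0.42 and -0.39 over all genes compared. Size factors raised LPS ratios by 0.61 on the log2 scale under the null label and by 0.53 in wild type, and moved the all-gene medians to 0.18 and 0.13. On that scale Timp2 stood at -0.76 and -0.98 and Mmp8 at -0.82 and -0.52, labelled Trpv4-null and wild type, while Mmp14 stood at 6.91 and 6.69. Mmp12 stood at -0.09 under the null label, near an even level, and at -1.05 in wild type.

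The comparison of untreated libraries asks how cells labelled Trpv4-null differ from wild type before LPS, with the reservation on the Trpv4 UMIs above. Mmp8 had 43.4 CPM in the library labelled Trpv4-null and 9.19 CPM in wild type, a ratio of 4.72 (4.24 to 5.27). At 3000 UMIs per cell it was found in 8.15% of cells (7.43% to 8.92%) labelled Trpv4-null and in 2.20% of wild-type cells (1.85% to 2.59%). The Mmp8 ratio was above 1 in 8 of 8 clusters, with log2 ratios from 0.998 in Cd74+ to 2.54 in High_Lpl_Fabp4+. Mmp13 had 19.8 CPM in the library labelled Trpv4-null and 7.09 CPM in wild type, a ratio of 2.79 (2.45 to 3.18), just under the 20 CPM minimum. Its log2 ratio was above 1 in 7 of 8 clusters and -0.05 in Cd74+.

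The other 6 genes lay within 2-fold of wild type in the untreated cells. Mmp12 had 53.8 CPM labelled Trpv4-null and 42.8 CPM in wild type (log2 ratio 0.32), with 6 of 8 clusters above 0 and Cd74+ at -0.50. Timp2 (0.28) was higher in 7 of 8 clusters, and Adam17 (-0.22) was lower in 8 of 8. Adam8 (-0.29) was lower in 7 of 8. Counting intervals lay above an even ratio in 6 clusters for Timp2, and below it in 6 for Adam17 and 6 for Adam8. Mmp14 (-0.08) and Mmp9 (-0.45) had few UMIs, and their clusters went both ways. The intervals of Mmp14 in the untreated libraries overlapped (2.16 to 3.099 CPM labelled Trpv4-null, 2.34 to 3.36 CPM in wild type). Of 5 members compared, 1 was at least 2-fold higher (Mmp8), beside 0.146% of 6156 genes, and 0 were at least 2-fold lower, beside 0.146%. The median log2 ratio of the 5 was 0.28, against -0.02 over all genes compared.

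After LPS the 3 metalloproteases of chromosome 9 stood higher in the library labelled Trpv4-null. Mmp13 had 47.6 CPM there and 16.0 CPM in wild type, a ratio of 2.98 (2.84 to 3.13). Mmp12 had 33.0 CPM labelled Trpv4-null and 13.8 CPM in wild type, a ratio of 2.39 (2.26 to 2.52). Mmp8 had 15.8 CPM labelled Trpv4-null and 4.19 CPM in wild type, a ratio of 3.76 (3.42 to 4.13), below the 20 CPM minimum. All 3 genes were higher under the null label in 8 of 8 clusters. The Mmp12 log2 ratio ranged from 0.19 in Cd74+ to 2.21 in Ifit1bl1+_Cmpk2+, and Mmp12 was at least 2-fold higher in 6 of 8 clusters. When CPM was first averaged over clusters of equal weight, the log2 ratio of the averages was 0.68, under 2-fold. Cd74+, with 181 CPM labelled Trpv4-null and 159 CPM in wild type, weighs most in these averages.

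Mmp9 had 16.1 CPM labelled Trpv4-null and 9.47 CPM in wild type after LPS, a ratio of 1.70 (1.59 to 1.83), and was higher in 8 of 8 clusters. Timp2 (log2 ratio 0.42) and Adam8 (0.33) were also higher in 8 of 8. Adam17 (-0.23) was lower in 8 of 8 clusters, as in the untreated cells, with counting intervals below an even ratio in 8 clusters, against 6 untreated. Mmp14 had a ratio of 1.04 (1.03 to 1.06). Of 6 members compared, 2 were at least 2-fold higher (Mmp12 and Mmp13), beside 0.134% of 5236 genes, and 0 were at least 2-fold lower, beside 0.0573%. The median log2 ratio of the 6 was 0.38, against -0.04 over all genes compared.

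**Figure D3:**
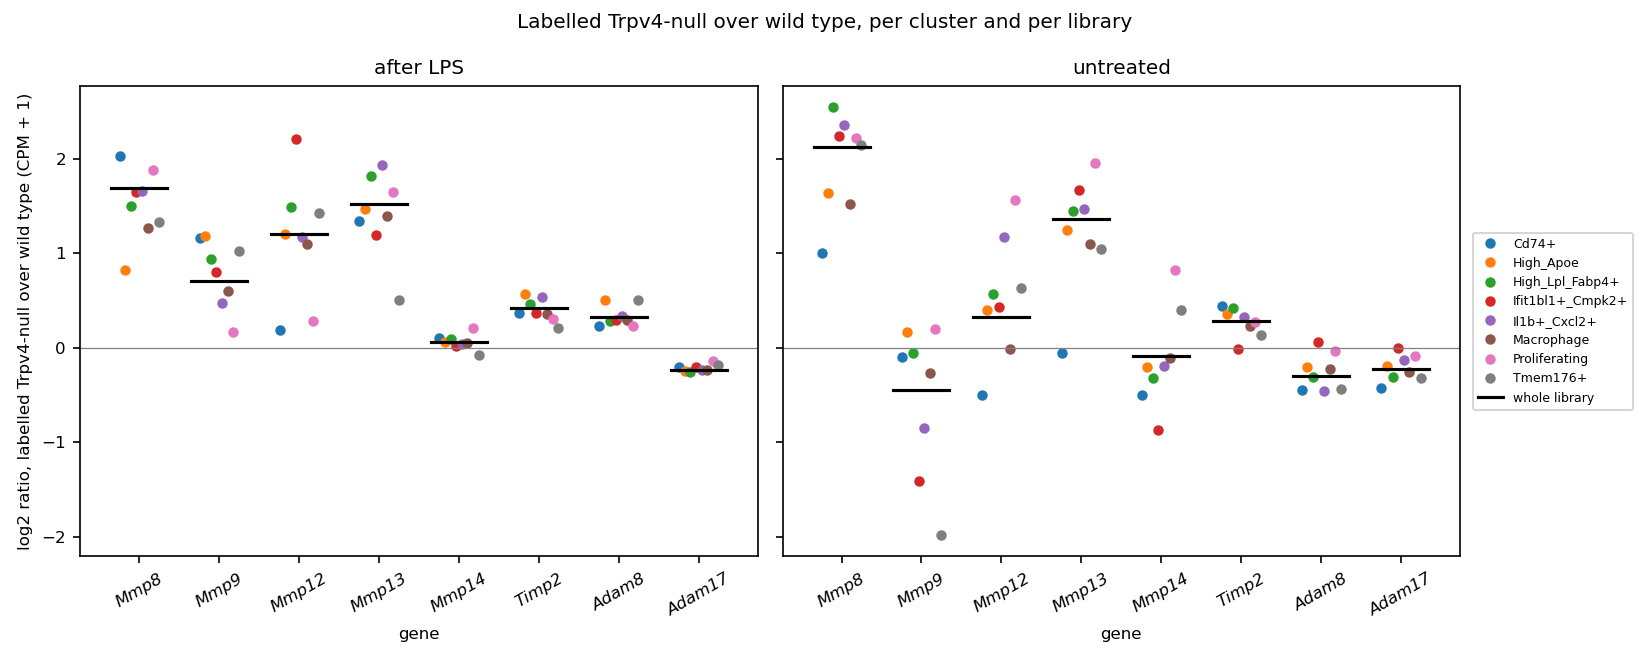
Log2 ratio of CPM + 1, labelled Trpv4-null over wild type, for each gene; points are the 8 clusters named by the authors and black lines the whole libraries, after LPS on the left and untreated on the right. All Mmp8 points lie above 0 in both panels, and all Adam17 points lie below 0.

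Neutrophil genes were measured beside Mmp8 and Mmp9, since granulocytes make both. Of the 11 neutrophil markers listed, 9 were in the table and 5 reached 20 CPM in a library. Their summed level was 305 and 319 CPM in the LPS libraries, labelled Trpv4-null and wild type, and 343 and 221 CPM in the untreated ones. The members went different ways with LPS: Lcn2 had 197 and 201 CPM after LPS, labelled Trpv4-null and wild type, against 17.5 and 12.3 CPM untreated, and Csf3r had 81.7 and 69.5 against 31.9 and 31.5 CPM. S100a8 had 16.7 and 24.8 CPM after LPS against 101 and 59.5 CPM untreated, S100a9 had 6.75 and 19.9 against 153 and 94.1 CPM, and the granule gene Ngp was at 0 and 1.17 against 26.2 and 17.0 CPM. Cells with at least 2 UMIs of S100a8 and S100a9 numbered 225 and 332 after LPS and 17 and 7 untreated, labelled Trpv4-null and wild type. These cells held 76.3% and 86.7% of all S100a8 and S100a9 UMIs after LPS and 98.7% and 98.2% untreated, in the same order. LPS cells were also deeper, so the same cut may pick unlike cells with and without LPS, and their numbers are not compared. The cells past the cut held 8.27% and 9.60% of Mmp8 UMIs after LPS and 2.84% and 5.22% untreated, in the same order. Without these cells the Mmp8 log2 ratio of labelled Trpv4-null over wild type was 2.16 untreated and 1.69 after LPS, against 2.12 and 1.69 with them.

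The LPS response itself was set side by side between the labels, as the difference of the log2 ratios (labelled Trpv4-null minus wild type). Among the 7 members with at least 20 CPM in a library, 0 were 2-fold or more apart, beside 0.634% of 6471 genes. The difference was 0.88 for Mmp12, 0.62 for Adam8 and -0.43 for Mmp8. It was 0.16 for Mmp13, 0.14 for Mmp14, 0.14 for Timp2 and -0.01 for Adam17. Counting intervals, taken without a pseudocount, included 0 for Mmp13 (-0.10 to 0.29), Mmp14 (-0.19 to 0.54) and Adam17 (-0.06 to 0.04). They did not for Timp2 (0.098 to 0.19), Mmp12 (0.81 to 1.04), Adam8 (0.58 to 0.67) and Mmp8 (-0.53 to -0.13). The median of the 7 was 0.14, against -0.04 over all genes compared. For Mmp9, under the minimum, the difference was 1.16, and without a pseudocount it was 1.57 (1.03 to 2.12).

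The genes also differed in how their UMIs were shared out among cells. The 1% of cells richest in Mmp12 held 58.5% and 69.1% of its UMIs after LPS, labelled Trpv4-null and wild type, and 77.0% and 86.6% untreated, and 1 cell of the LPS library labelled Trpv4-null held 233 of them. For Mmp13 the share was 34.4% and 40.7% after LPS against 34.1% and 57.1% untreated, with up to 143 UMIs in 1 cell. For Adam17 it was 3.52% and 3.59% after LPS against 4.99% and 5.70% untreated, and for Timp2 6.81% and 6.97% against 4.49% and 5.26%. This share also depends on a gene's UMI total. Counting intervals treat UMIs as separate draws and so are too narrow for a gene held by few cells.

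Between the labels, shares of cells with a UMI gave the same order as CPM for Mmp8, Mmp12 and Mmp13 in both conditions. At 3000 UMIs per cell, Mmp13 was found in 8.05% and 3.45% of LPS cells, labelled Trpv4-null and wild type, against 4.397% and 1.68% of untreated cells. Mmp8 was found in 3.68% and 1.02% of LPS cells against 8.15% and 2.20% of untreated cells. For Mmp12 the shares were 4.19% and 1.92% after LPS against 3.26% and 2.23% untreated, and under the null label this order goes against the CPM, so no order is read from it. Mmp9 was found in 3.63% and 2.12% of LPS cells against 0.246% and 0.236% of untreated cells. Without thinning, Mmp13 was found in 21.3% and 10.4% of LPS cells against 9.15% and 2.90% of untreated cells, Mmp8 in 12.8% and 4.91% against 17.5% and 3.96%, Mmp12 in 10.97% and 5.72% against 5.65% and 3.57%, and Mmp9 in 12.99% and 7.61% against 0.492% and 0.498%. No compared cluster was of a cell type known to lack these genes, so the part of free RNA in these shares was not tested.

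Both sheddases were found in many cells of every library. At 3000 UMIs per cell, Adam8 was found in 48.5% and 42.4% of LPS cells, labelled Trpv4-null and wild type, against 34.9% and 39.4% of untreated cells. In wild type this order goes against the CPM, so no order is read from it. Adam17 was found in 43.0% and 47.4% of LPS cells against 37.7% and 43.0% of untreated cells. Without thinning the shares were 87.8% and 84.4% after LPS against 59.5% and 55.3% untreated for Adam8, and 90.2% and 92.6% against 68.8% and 63.5% for Adam17. For Timp2 the unthinned shares were 74.6% and 68.0% after LPS against 87.5% and 76.0% untreated.

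The authors' clusters, which were made from these same cells and genes, placed the members differently, and the values by cluster are a description. The orders given here are among the 8 clusters compared. Mmp13 was highest in Ifit1bl1+_Cmpk2+, a cluster named for interferon-induced genes, in each library: 153 and 66.4 CPM after LPS, labelled Trpv4-null and wild type, and 107 and 33.0 CPM untreated. Mmp8 was highest in the Proliferating cluster of the untreated libraries, with 138 CPM labelled Trpv4-null and 28.9 CPM in wild type. After LPS it was highest in Cd74+, with 62.0 CPM labelled Trpv4-null and 14.5 CPM in wild type. Adam8 was highest in High_Lpl_Fabp4+ in each library, with 375 and 308 CPM after LPS and 362 and 449 CPM untreated. In High_Btg1, left out for its few cells, Mmp13 had 187 CPM after LPS labelled Trpv4-null (23 cells) and 120 CPM in wild type (36 cells), and Adam8 had 622 and 544 CPM, above the highest of the 8 clusters in both cases. Adam17 was nearly even, with 1.29 to 1.40 times as much in the highest cluster as in the lowest of the same library. Mmp14 after LPS ranged over clusters from 257 to 336 CPM labelled Trpv4-null and from 256 to 321 CPM in wild type.

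**Figure D4:**
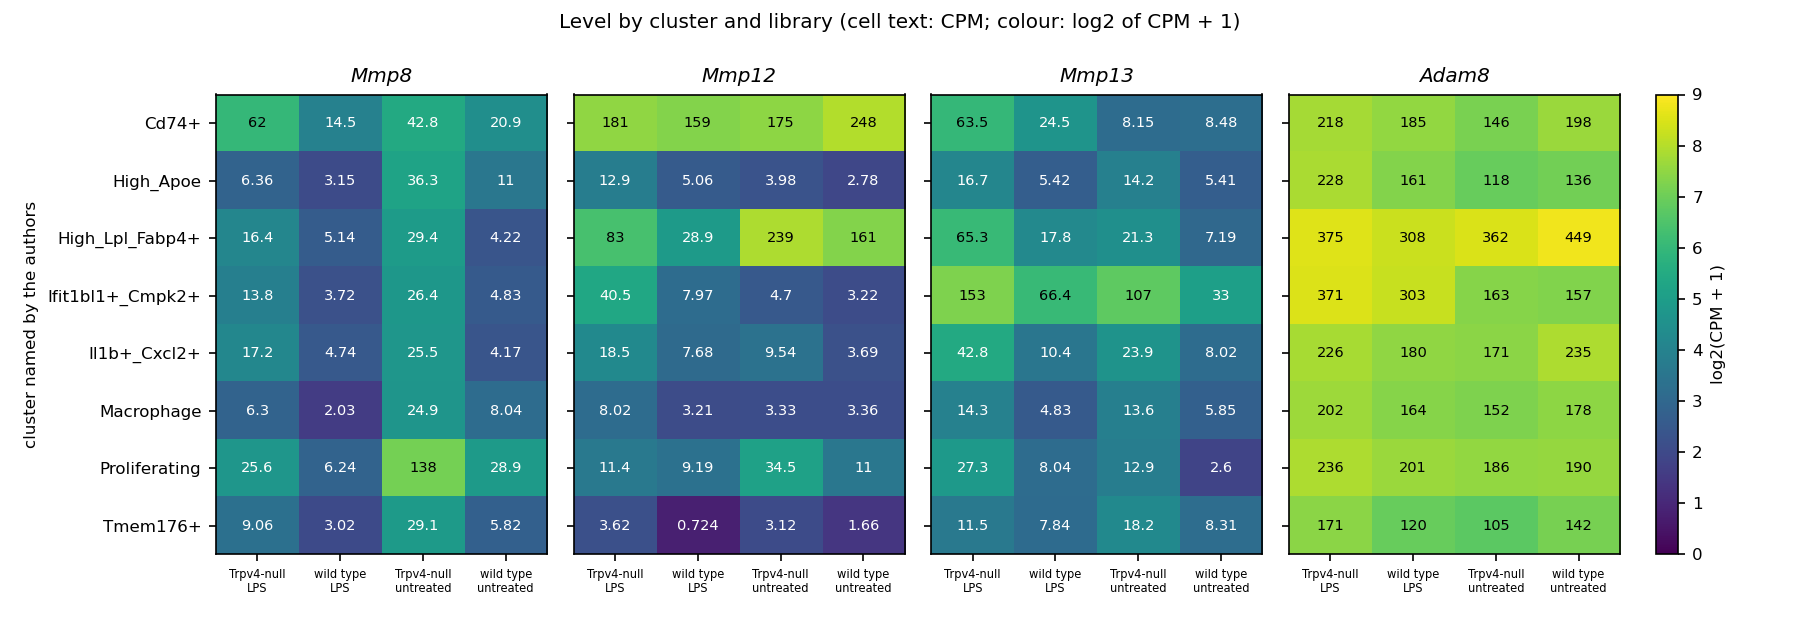
CPM of Mmp8, Mmp12, Mmp13 and Adam8 in the 8 clusters named by the authors (rows) and the 4 libraries (columns); the number in each cell is CPM and the colour is log2 of CPM + 1 on 1 scale. Among these 8 clusters Mmp12 lies mostly in Cd74+ and High_Lpl_Fabp4+, Mmp13 is highest in Ifit1bl1+_Cmpk2+ in each library, and Mmp8 reaches 138 CPM in untreated Proliferating cells labelled Trpv4-null.

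The metalloprotease genes that neighbour Mmp8, Mmp12 and Mmp13 were looked at after the values of those 3 had been seen, so the choice is not independent. The run of MMP genes at chr9:7272514-7699585 holds 10 annotated Mmp genes, of which 5 are in the table. Mmp27, the gene next to Mmp8, had 3.85 and 1.83 CPM after LPS, labelled Trpv4-null and wild type, and 9.45 and 2.95 CPM untreated. Its ratio of labelled Trpv4-null over wild type was 2.10 after LPS (1.80 to 2.46) and 3.20 untreated (2.63 to 3.93). Mmp10 had 8 and 4 UMIs after LPS and 2 and 1 UMIs untreated, too few for a ratio. The 5 genes of the table within 200000 bases on either side had log2 ratios of labelled Trpv4-null over wild type from -0.32 (Dync2h1) to -0.02 (Birc3) after LPS and from -0.16 (Dync2h1) to 0.39 (Birc3) untreated. All 5 lay within 2-fold. Mmp13, Mmp12, Mmp8 and Mmp27 lay above 0 in both conditions, but untreated Mmp12 (0.32) also lay within 2-fold and below Birc3. The flanking genes Dcun1d5, Tmem123, Birc2 and Birc3 lay above 0 untreated as well.

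**Figure D5:**
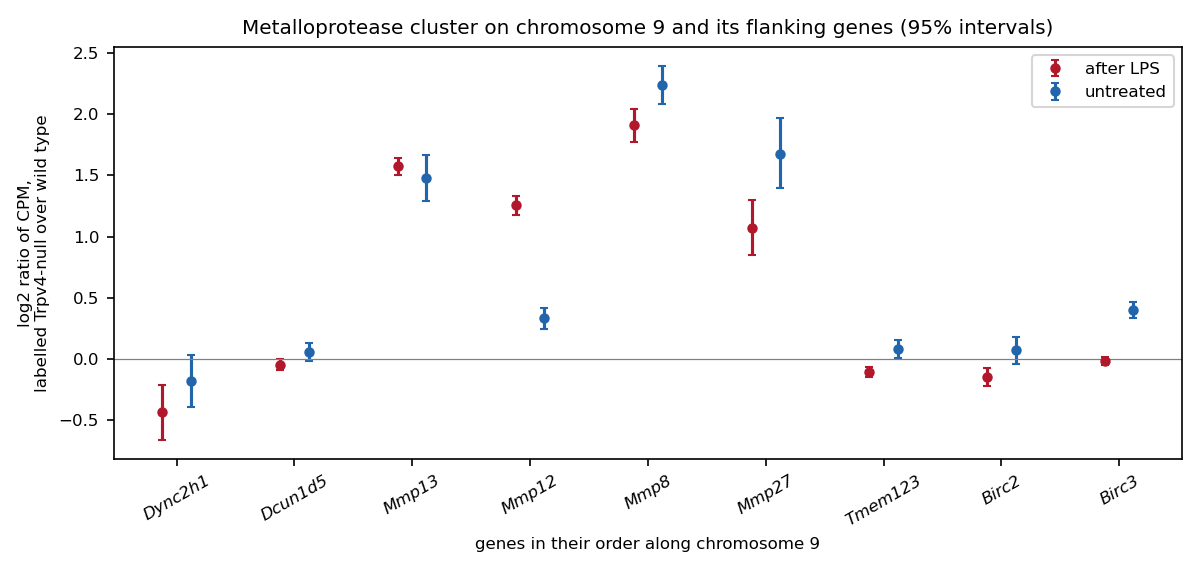
Log2 ratio of CPM (no pseudocount), labelled Trpv4-null over wild type, after LPS and untreated, for genes in their order along chromosome 9; bars are 95% counting intervals. Mmp13, Mmp12, Mmp8 and Mmp27 lie above 0, and the flanking genes lie within 0.5 of 0. Untreated Mmp12 (ratio 1.26) also lies within 0.5 of 0, below untreated Birc3 (ratio 1.32).

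The remaining genes of these families were few at this depth. Of 18 other MMPs listed, 10 were in the table and 1 reached the minimum: Mmp19, with 11.9 and 14.3 CPM after LPS, labelled Trpv4-null and wild type, against 27.8 and 24.7 CPM untreated (log2 ratios -1.16 and -0.75). Of 18 other ADAM and ADAMTS proteases, 9 were in the table and 4 were compared under the null label, with 0 at least 2-fold higher and 1 lower (Adam19, -1.30), beside 7.3% and 21.3% of all genes. In wild type 3 were compared and 0 were 2-fold apart, beside 6.9% and 17.7%, and Adam19, at 6.63 CPM after LPS against 18.1 CPM untreated, lay under the minimum with a log2 ratio of -1.32. Adam10, which sheds Notch receptors and many other proteins, had 50.4 and 53.6 CPM after LPS against 86.4 and 99.6 CPM untreated. Rhbdf2, a partner that carries ADAM17 to the cell surface, had 63.0 and 63.2 CPM after LPS against 32.8 and 32.6 CPM untreated, with log2 ratios of 0.92 and 0.93. Of 12 sheddase partners listed, 10 were in the table. Among 7 compared under the null label, 0 were at least 2-fold higher and 1 was lower (Tspan14, -1.29), and in wild type the same counts among 6 were 0 and 1 (Tspan14, -1.33), which is near the shares of all genes given above.

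Of 25 sheddase substrates listed, 17 were compared between LPS and untreated under either label. Under the null label 4 were at least 2-fold higher and 8 lower, beside 7.3% and 21.3% of all genes compared. In wild type 4 were higher and 7 lower, beside 6.9% and 17.7%. Their median log2 ratio was -0.21 under the null label and -0.04 in wild type, beside -0.42 and -0.39 over all genes. Tnf, the substrate that gave ADAM17 its name, had 98.6 and 70.9 CPM after LPS, labelled Trpv4-null and wild type, against 3.91 and 8.12 CPM untreated. Il6ra, the interleukin receptor that ADAM proteases shed, had 36.7 and 41.0 CPM after LPS against 199 and 189 CPM untreated. Between the labels, 0 of the 17 substrates compared after LPS and 0 of the 14 compared untreated were 2-fold apart, beside 0.134% higher and 0.0573% lower of all genes after LPS and 0.146% each way untreated. Serpinb2, an inhibitor of plasminogen activators, had 58.0 CPM labelled Trpv4-null and 16.9 CPM in wild type after LPS, a ratio of 3.43 (3.27 to 3.59), and 4 and 2 UMIs in all in the untreated libraries. It was 1 of 8 plasminogen genes listed. Under the null label 2 of them were compared between LPS and untreated: Serpinb2 was higher (beside 7.3% of all genes) and Serpinb6a lower at -2.26 (beside 21.3%). In wild type 1 was compared, Serpinb6a, lower at -2.29 (beside 17.7%). Of 14 matrix proteins, 3 were compared between LPS and untreated, with 0 at least 2-fold higher (beside 7.3% of all genes under the null label and 6.9% in wild type) and 1 lower under each label (Thbs1, -1.63 and -1.30, beside 21.3% and 17.7%). Apart from Serpinb2 after LPS, 0 genes of these lists were compared and 2-fold apart between the labels. That is near the all-gene shares of 0.134% higher and 0.0573% lower after LPS and 0.146% each way untreated.

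Over 32 pseudobulks (8 clusters in each of 4 libraries, which share library and depth), the genes most like Mmp14 among 6338 candidates were Fpr1, Cfb and Cd38, with Pearson correlations of log2(CPM + 1) of 0.99 each. Timp2 was most like Kif3a (0.96), Mfsd11 (0.95) and Rragc (0.94). Adam8 was most like Cd36 (0.89), Mmp13 like Plekhn1 (0.84), Mmp8 like Ahrr (0.80) and Mmp12 like Rab7 (0.77). Ahrr had 10.2 and 5.21 CPM after LPS, labelled Trpv4-null and wild type, and 26.2 and 7.89 CPM untreated, the same order of libraries as Mmp8. Among the 8 genes themselves, Mmp14 went with Mmp9 (0.89) and against Timp2 (-0.86), and Mmp12 went with Adam8 (0.59). Mmp14 had at least 256 CPM in every LPS pseudobulk and at most 7.25 CPM in every untreated one. Its correlations therefore mostly restate the LPS contrast given above. Mmp8, Mmp12 and Mmp13 were only loosely alike across pseudobulks, with 0.42 for Mmp8 and Mmp12, 0.26 for Mmp8 and Mmp13 and 0.25 for Mmp12 and Mmp13.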

How the data were processed

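The data were 10x single-cell libraries of BMDMs, 4 groups of 1 library each. The authors deposited raw UMI counts per gene and cell (14432 genes, 27366 cells, not normalized), and a cell annotation with, per the file headers, the total UMI count, the mitochondrial fraction, the library and the cluster name of each cell. Cell Ranger 3.1.0, Seurat 4, R 4.2 and mm10 are named, with no role, per the submitters' processing notes. The sources used here state neither cell filters nor doublet removal. Deposited cells had 1003 to 39987 UMIs and at most 10.0% mitochondrial UMIs. Counts of all 27366 cells matched the annotated totals.

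The deposited counts were summed by library and by cluster, scaled to CPM, and compared as log2 ratios with a pseudocount of 1 CPM, which understates ratios of low genes. Genes with at least 20 CPM and 30 UMIs in the higher library were compared. A ratio of 2-fold or more is a size, not a test. Intervals are 95%: exact Poisson for CPM, exact conditional for ratios and Clopper-Pearson for shares. Thinning to 3000 UMIs left out 93 and 122 LPS cells and 209 and 666 untreated cells, labelled Trpv4-null and wild type. The cluster High_Btg1 (67 cells) was too small to compare.

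Named genes were the 8 members, up to 4 of each listed group with the largest ratio, Timp1, Adam10, Rhbdf2 and Tnf, and the 3 genes most like each member. No list of like genes was made for Mmp9, under 20 CPM, and 1 likeness result is not reported here. The members and lists were chosen with earlier results of these data known. Of the marker lists beside neutrophil, stromal and macrophage markers, 3 of 7 osteoclast, 3 of 10 monocyte, 1 of 10 dendritic, 1 of 6 B, 0 of 7 T or NK and 0 of 6 mast cell genes reached 20 CPM. Promoters came from RefSeq (7 of 8 members matched). Tools were Python 3.11.15 with pandas 2.3.3, scipy 1.17.1, matplotlib 3.10.9 and numpy 2.4.6, and edgeR 4.0.16 in R 4.3.3 for TMM factors. Ratios and intervals were run on simulated Poisson counts of whole libraries. Those counts hold no clumping of UMIs in few cells, so they do not check the intervals of genes such as Mmp12.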

Additional observations from a re-analysis of the deposited data

Results flagged for a closer look

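Several genes stood on opposite sides of 0 in comparisons that share a contrast. With 1 library per group, none of these differences was tested, and all values are log2 ratios of CPM + 1. Adam8 was at 0.46 for LPS over untreated under the null label and at -0.16 in wild type, where size factors gave 0.37 and TMM factors 0.36. The share of wild-type cells with Adam8 at 3000 UMIs per cell was also higher after LPS, at 42.4% against 39.4% untreated. Between the labels, Adam8 was at 0.33 for labelled Trpv4-null over wild type after LPS and at -0.29 untreated. Both of these kept their sign under each of the 8 alternatives.

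Among the other genes that the naming rule gives, those below had at least 20 CPM and intervals on opposite sides of 0 for the same contrast of labels. Spp1, which encodes osteopontin, was at 0.50 after LPS and -0.074 untreated, and Thbs1, which encodes a thrombospondin, was at -0.079 and 0.25. The receptor Il6ra was at -0.15 after LPS and 0.077 untreated, Notch2 at -0.22 and 0.061, and the TNF receptor Tnfrsf1a at 0.16 and -0.19. The lipid receptor gene Trem2 was at 0.18 after LPS and -0.27 untreated.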

How the results depend on the processing

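Counts of members past 2-fold were recomputed under 8 alternatives fixed with the design. Under size factors and under TMM factors alike, members higher after LPS under the null label numbered 4 (Mmp9, Mmp13, Mmp14 and Adam8) in place of 2, members lower there 0 in place of 2, members lower in wild type 1 (Mmp12) in place of 2, and members whose LPS responses differ between the labels 1 (Mmp9) in place of 0. With no CPM minimum that last count was also 1, members higher after LPS in wild type numbered 3 (Mmp9, Mmp13 and Mmp14) in place of 1, and members higher in untreated cells labelled Trpv4-null 2 (Mmp8 and Mmp13) in place of 1. This last count was also 2 with the mean of per-cell CPM, with clusters weighted equally and with thinning to 3000 UMIs. With the mean of per-cell CPM and with clusters weighted equally, members higher after LPS under the null label than in wild type numbered 1 (Mmp13) in place of 2. Clusters of equal weight also gave 1 member higher after LPS under the null label (Mmp14) and 1 lower in wild type (Timp2). A pseudocount of 0.1 CPM and leaving out cells with 2 or more S100a8 and S100a9 UMIs moved no count past 1.5 times. The cause of these moves was not tested, apart from the scaling shift of 0.61 and 0.53 given above and the wider set of members that no minimum lets in.

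Of 32 member ratios, 3 changed sign in 4 cases: Adam8 for LPS in wild type (above), Mmp14 for labelled Trpv4-null over wild type untreated (0.08 with the mean of per-cell CPM, against -0.08) and Mmp9 for the same contrast (0.15 when thinned, against -0.45). Shares of cells moved past their intervals in 32 of 32 cases when cells were thinned to 1000 UMIs. Drawing fewer UMIs per cell lowers such shares for any gene, so the direction of these moves was set in advance. No paired analysis was possible because each group is 1 library. Depth limits Mmp9 and Mmp14 in untreated cells, which rest on 45 to 123 UMIs per library.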

Other observations

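Mmp12 was found more often in cells that also held Mmp13. At 3000 UMIs per cell, 57 of 521 cells with an Mmp13 UMI in the LPS library labelled Trpv4-null had an Mmp12 UMI, 10.9% (8.39% to 13.9%), against 3.60% (3.14% to 4.10%) of the 5951 cells without one. In the wild-type LPS library the shares were 6.03% (3.55% to 9.48%) and 1.78% (1.496% to 2.09%). Untreated cells labelled Trpv4-null gave shares that were 7.76% (4.66% to 12.0%) and 3.05% (2.60% to 3.57%). In the untreated wild-type library they were 3.74% (1.03% to 9.30%) and 2.21% (1.86% to 2.60%), and the intervals overlapped.

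Mmp8 was in 7.87% (5.71% to 10.5%) of Mmp13-positive and 3.31% (2.87% to 3.797%) of Mmp13-negative cells of the LPS library labelled Trpv4-null. In the wild-type LPS library these shares were 3.19% (1.47% to 5.97%) and 0.939% (0.738% to 1.18%). In untreated cells they were 8.19% and 8.15% labelled Trpv4-null and 1.87% and 2.21% in wild type, and the intervals overlapped. Mmp9 was in 4.22% of Mmp13-positive and 3.58% of Mmp13-negative LPS cells labelled Trpv4-null. In wild-type LPS cells these shares were 2.48% and 2.11%, and the intervals overlapped under both labels. Untreated, 0 of 232 Mmp13-positive cells labelled Trpv4-null and 0 of 107 in wild type held Mmp9. Cluster makeup, doublets and differences in total RNA between cells were not tested as parts of these figures.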
